A study of Mus musculus with 9 samples.

Results

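The baseline described here is the ventricle of non-transgenic (NTG) mice, measured on the 3 arrays of the series that carry NTG in their titles, of 9 arrays in all. The series compares these mice with caPI3K and dnPI3K animals in a study of heart enlargement and phosphoinositide 3-kinase signalling, and the 6 arrays of those animals entered no value below except where stated. Total RNA was taken from ventricle only, and each NTG array holds the RNA of a different animal, called replicates 1, 2 and 3 in the order of deposition. The labels give no strain, age or sex for the mice, and they put the scanner's photomultiplier at 10%. An animal and its array cannot be told apart, because no animal was measured more than once. No group is compared with another, so no test was run, and means are given with the standard deviation (SD) over 3 arrays.

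The ventricle wall is built from cardiomyocytes, muscle cells that contract without pause and are filled with sarcomeres and mitochondria. In the sarcomere, thick filaments of myosin pull on thin filaments of actin, troponin and tropomyosin, and calcium released from the sarcoplasmic reticulum switches each beat on. Between the muscle cells lie endothelial cells, fibroblasts, smooth muscle cells of the vessels, macrophages and blood, so RNA of whole ventricle is a mixture in which fewer cells of a type and less RNA per cell cannot be told apart.

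The arrays carried 12488 probe sets, sets of short oligonucleotides that each read a single transcript or a group of transcripts, of which 12422 are not array controls. The deposited intensity is a brightness on a linear scale, and all arrays had been brought to a common level, since a trimmed mean that drops 2% of the values at either end lay between 499.5 and 499.7 on the NTG arrays. Their medians were 192, 189.8 and 194. A floor of 38.2, the 20th percentile of all NTG values, marks the dim end of the scale, and 10167 probe sets had a mean above it. A gene was read by its brightest probe set that names a single gene, which gave 8251 genes, of which 7244 lay above the floor. The logarithms of the arrays had Pearson correlations of 0.948, 0.946 and 0.942 across the 10167 probe sets, which are not independent of each other. The ratio of 3′ to 5′ control probe sets was 0.849 ± 0.0147 (SD, n = 3) for Gapdh and 1.22 ± 0.0767 (SD, n = 3) for Actb.

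Contractile and mitochondrial genes led the ranking of brightness. The brightest gene was Myl2, the regulatory light chain of ventricular myosin, with intensities of 35292, 49149 and 36779.7 on replicates 1, 2 and 3. Myh6, the fast alpha heavy chain of cardiac myosin, followed at 35794, 45434 and 38296. Myl3, the ventricular essential light chain, read 34023, 47058 and 37245. In each of these genes replicate 2 was the brightest array and replicate 1 the dimmest.

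Of the 25 brightest genes, 8 belonged to a list of 17 measured genes of the thick filament, thin filament and Z-disc, 6 to oxidative phosphorylation and 3 to energy transfer. The troponins, which make the thin filament sensitive to calcium, stood at gene ranks 4 (Tnni3), 9 (Tnnc1) and 25 (Tnnt2). Actc1, cardiac actin, held rank 11 with 28329, 37209.6 and 30849, and Mybpc3, which braces the thick filament, held rank 16 with 24327, 28079 and 27897. Myoglobin (Mb), the oxygen store of the muscle cell, held rank 5 with 31929, 39421 and 31721. Its second probe set was under the floor, at 19.9, 13.8 and 20.3. Cox6a2, the muscle form of a cytochrome c oxidase subunit, held rank 6 with 31065, 38869.9 and 32244. The rest of the 25 included Slc25a4, which exchanges ATP for ADP across the inner mitochondrial membrane, and the respiratory chain genes Cyc1, Ndufb5, Uqcrq, Atp5l and Ndufv1. Ckmt2, the mitochondrial creatine kinase of striated muscle, and Aldoa, an enzyme of glycolysis, were also among them. So were Chchd10, a mitochondrial protein, Atp5md, of ATP synthase, and Eef1a2, the elongation factor of muscle and nerve. Gnas, the stimulatory G protein subunit through which adrenaline raises heart rate and force, stood at rank 19. Rpl41, a protein of the ribosome, and Tpt1, an abundant protein of most cells, completed the group. Between them, Hba-a1, an alpha globin of red blood cells, held rank 7 with 35166, 41336 and 24522. These ranks rest on the brightest probe set of each gene. The dimmest probe sets of Gnas, Atp5l and Ckmt2 had means of 15.3, 155 and 12.8, whereas those of Actc1, Cyc1 and Aldoa had means of 26367, 5847 and 7570.

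The 5 genes given as marks of ventricle were Myl2, Myh6, Myl3, Actc1 and Atp2a2, and their gene ranks were 1, 2, 3, 11 and 29. Atp2a2, the calcium pump that refills the sarcoplasmic reticulum, read 18509.9, 23632 and 21342. All 11 measured genes of a wider list of ventricular cardiomyocyte genes lay in the brightest 10% of genes. The dimmest of them was Ryr2, the calcium release channel, at 5077, 4968 and 6942, and next came Nppb, a natriuretic peptide, at 7473, 9987 and 8636. These values do not go against the label of ventricle; the atrial genes are described further on. Some bright probe sets name several genes and enter no gene rank, such as that of Cox7c and Gm12338 at probe set rank 5 and that of the beta globins at rank 7.

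**Figure D1:**
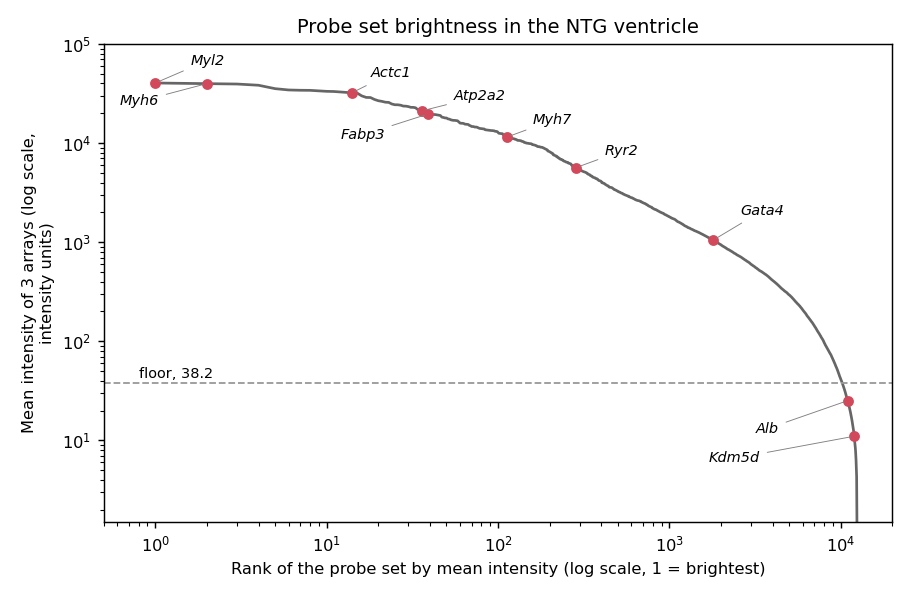
Mean intensity of the 3 NTG arrays for each of the 12422 probe sets against its rank, both axes on a log scale, with 10 genes marked and the floor of 38.2 as a dashed line. Myl2 and Myh6 lead, Ryr2 and Gata4 lie further along the curve, and the liver gene Alb and the Y-linked gene Kdm5d lie under the floor.

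The brightest 100 probe sets held 21.1%, 23.8% and 21.1% of the summed intensity of replicates 1, 2 and 3, or 22.0% ± 1.54 (SD, n = 3). Replicate 2 was the brightest array for 85 of these 100 probe sets, replicate 1 for 6 and replicate 3 for 9, whereas of all probe sets above the floor 34.5% were brightest on replicate 2, 28.1% on replicate 1 and 37.4% on replicate 3. The brightest transcripts were thus highest on the same array, and the part of scanning or scaling in this was not tested.

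A sequence element of muscle genes was looked for close to the starts of the contractile genes. Serum response factor, a regulator of muscle genes, is known to bind the CArG box, and this motif was searched on both strands in the 250 bases before each RefSeq transcript start of build GRCm38.p6. It was present in 5 of 18 windows (27.8%) of 14 of the 17 measured sarcomere genes, against 1.47% of all 32851 windows and 4.31% of the windows of the brightest 100 genes. The matches lay before Actc1, Myl3, Ldb3 and Myom1, with Ldb3 counted at 2 starts, so that of the 8 sarcomere genes among the brightest 25 only Actc1 and Myl3 had a match. It was 1 of 7 motifs searched: in the same 18 windows the M-CAT element (CATTCC) was present in 5 (27.8%, all windows 12.6%), the GATA element (AGATAA) in 3 (16.7%, all windows 9.99%), the MEF2 element in 1 (5.56%, all windows 1.69%) and TATAAA in 1 (5.56%, all windows 12.4%). The windows of Actc1 and Myl3 are shown because these are the brightest genes with a match, and capitals mark the match. Actc1 lies on the minus strand (chr2:114052876-114053125) with its match 47 to 38 bases before the start, and Myl3 on the plus strand (chr9:110763428-110763677) with its match 85 to 76 bases before the start.
Actc1: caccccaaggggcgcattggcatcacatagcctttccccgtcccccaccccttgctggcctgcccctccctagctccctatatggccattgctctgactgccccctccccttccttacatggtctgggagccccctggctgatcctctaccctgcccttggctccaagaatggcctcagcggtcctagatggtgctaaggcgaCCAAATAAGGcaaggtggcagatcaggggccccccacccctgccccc
Myl3: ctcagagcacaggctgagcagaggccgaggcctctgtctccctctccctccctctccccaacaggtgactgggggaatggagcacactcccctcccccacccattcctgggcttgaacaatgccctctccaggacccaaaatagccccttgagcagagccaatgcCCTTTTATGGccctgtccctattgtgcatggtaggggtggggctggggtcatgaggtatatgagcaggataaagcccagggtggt
A match of letters is a description and was not tested for binding.

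How far brightness can be read as transcript level was measured on the array itself, from genes with more than 1 probe set. In 2161 pairs of probe sets that share a gene, both with means above the floor, the median gap was 1.44 on the log2 scale. The 90th percentile of these gaps was 3.70 and the largest was 8.22, in Cox6c. Pairs with a probe set under the floor were left out, and some of them lie further apart. Mb is 1 of these, with 19.9, 13.8 and 20.3 on its dimmer probe set. Without this filter the 90th percentile was 4.08. An example within the sarcomere is Myh7, the slow beta heavy chain of myosin. Its brighter probe set read 11279.8, 12076 and 11233 and its dimmer one 49.5, 87.4 and 83.9, and both carry the array's code for sequence shared with other transcripts. So a gap between genes, given below as a difference in mean log2 brightness, is one between probe sets and not a ratio of transcript levels. Genes of a family are called apart only where their order is the same on all 3 arrays and their gap exceeds 3.70. Where a relative lay under the floor on any array it was raised to it, and the gap, written as at least, is a lower bound. Of all pairs of genes with means above the floor, 16.2% differ by more than this gap.

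In 41 of 45 families of related genes, the member known from heart or striated muscle and at least 1 other member were measured. The heart or muscle member was the brightest in 29 families, on all 3 arrays in each, and another member was the brightest in 12. Of 96 pairs of a heart member and a relative, 59 were apart with the heart member brighter and none were apart the other way, while 37 were not apart. In 19 of the 96 pairs the relative was raised to the floor on at least 1 array. The families were chosen for their known differences in heart, so their count is a description and is not set against the share of all gene pairs.

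**Figure D2:**
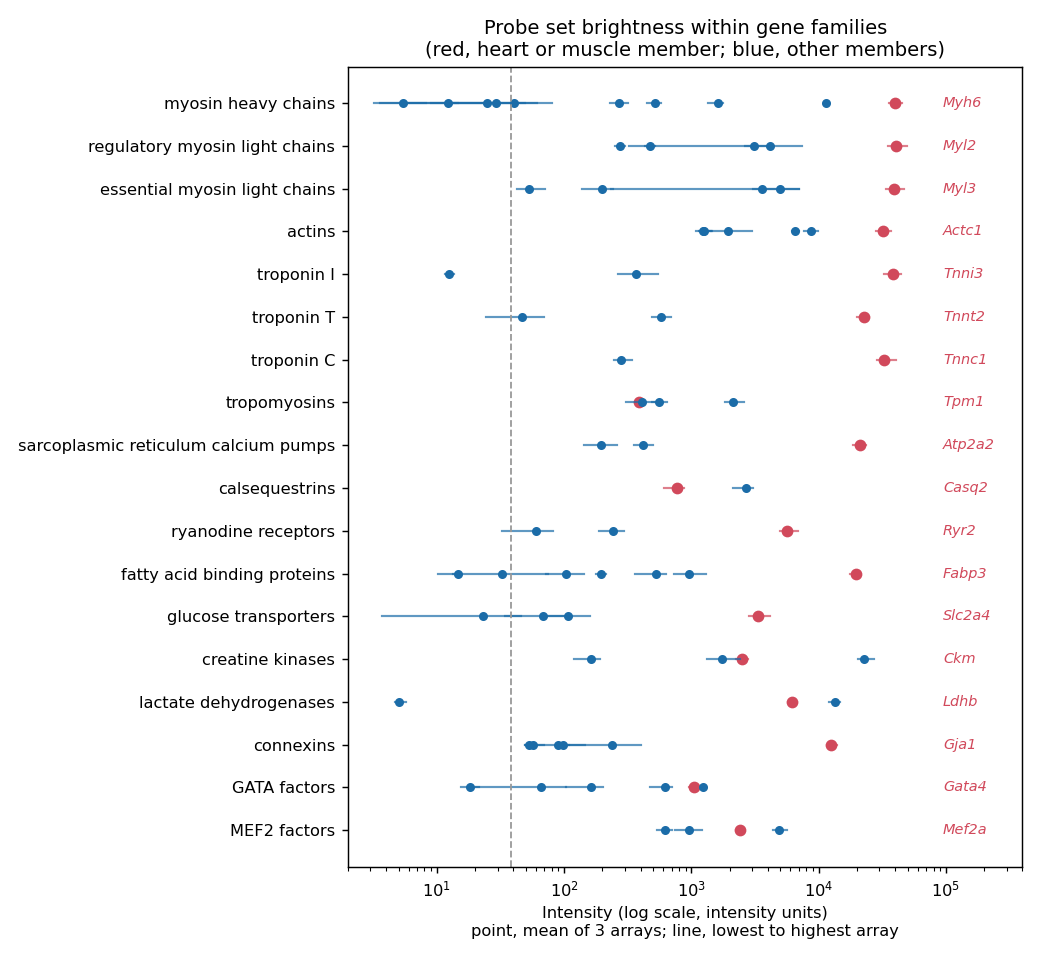
Intensity on a log scale for the measured members of 18 families, with points for the mean of 3 NTG arrays, lines from the lowest to the highest array, red for the heart or muscle member named at the right and blue for its relatives. Myh6, Tnni3, Atp2a2, Fabp3 and Gja1 stand to the right of their families, Tpm1, Casq2 and Ldhb do not, and the lines of Myl7 and Myl4 run long.

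Among myosin heavy chains, Myh6 was apart from every measured relative except Myh7. The gap to Myh7, taken from its brighter probe set, was 1.78, inside the limit. Of the fast skeletal chains, Myh4 read 448, 517 and 578 on a probe set coded for relaxed design rules, whereas Myh1 and Myh2 were under the floor on every array, with Myh1 at 8.2, 4.6 and 3.6. The developmental chains Myh3 and Myh8 had means under the floor. The light chains differed in the same direction. The gap was 4.15 between Myl2 and its atrial relative Myl7 and 4.44 between Myl3 and its atrial relative Myl4. Both calls turned on replicate 3, where Myl7 read 326 and Myl4 233. On replicates 1 and 2 Myl7 read 7438 and 4741 and Myl4 7044 and 3566, and with these arrays alone both gaps lay inside the limit. The wide spread of these atrial genes is described further on. Myl3 was not apart from Myl1, a light chain of skeletal muscle, at 7073, 4712 and 3070, with a gap of 3.06. Myl12b, a light chain of non-muscle cells, lay on the limit itself at 3.70 and was not called apart from Myl2.

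Cardiac actin could not be placed apart from all other actins. Actc1 was 1.89 above Acta1, the skeletal muscle form, and 2.29 above Actg1, a cytoskeletal form, both inside the limit, but beyond it against Acta2 (4.67) and Actg2 (4.71). Acta1 itself read 9953, 8388 and 7729. The troponins were apart throughout: Tnni3 from the slow form Tnni1 by 6.77 and from the fast form Tnni2 by at least 9.96, Tnnt2 from Tnnt1 by 5.33 and Tnnt3 by at least 8.85, and Tnnc1 from Tnnc2 by 6.87. Tnni1, the troponin I of the fetal heart, read 546, 291 and 264.

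Tropomyosin ran against the pattern. Tpm1, the alpha tropomyosin of the cardiac thin filament, read 359, 370 and 427, at gene rank 3393. Tpm4, of non-muscle cells, read 2614, 1834 and 1961. The gap of -2.46 lay within the limit, so the order of these genes in the tissue was not settled. Actn2, the alpha-actinin of the muscle Z-disc, likewise read 514, 521 and 441, next to 511, 507 and 555 for the non-muscle Actn1. Gaps of up to 8.22 between probe sets of a single gene, both above the floor, stand beside these low readings. No gene is called scarce from them.

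In calcium handling, Atp2a2 was apart from the fast skeletal pump Atp2a1 by 6.81 and from Atp2a3 by 5.68. Ryr2 was apart from Ryr1 by at least 6.56 and from Ryr3 by 4.54. Casq2, the calcium store protein of cardiac muscle, read 610.4, 817 and 875 and was dimmer than the skeletal form Casq1 at 2116, 3049.9 and 2914, with a gap of -1.81 inside the limit. Hrc, which binds calcium inside the same store, read 7549, 7469 and 7374, and Slc8a1, the sodium-calcium exchanger, 4417, 4872 and 5373. Sarcolipin (Sln), a pump inhibitor of atrium, read 36.0, 33.7 and 29.6, under the floor on each array. Of the 14 measured calcium genes, 9 lay in the brightest 10%.

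The gap junction family had a single bright member. Gja1 (connexin 43), which couples ventricular myocytes, read 11643, 12028 and 13928, and it was 5.92 above Gja5 (connexin 40), 7.79 above Gjc1 (connexin 45) and 7.24 above Gja4. Its second probe set read 928, 974 and 1297. Gja5, a connexin of atrium, conduction fibres and arterial endothelium, read 199, 403 and 109.

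Among fuel genes the muscle or heart form led in some families and not in others. Fabp3, the fatty acid binding protein of heart, read 17639, 20519 and 20815, and it was apart from all 6 measured relatives, of which the brightest was Fabp5 at 862, 1301 and 730. Slc2a4, the insulin-responsive glucose transporter, read 2833, 3033 and 4187 and was at least 5.72 above Slc2a1, but its second probe set read 74.9, 35.3 and 14.5, and that order turned when the dimmest probe sets were compared (-0.39). Eno3 was apart from Eno2, Aldoa from Aldoc, and Idh2 from Idh1. Pfkm was apart from Pfkp but not from Pfkl, and Hk2 and Hk1 differed by 0.32. Ldha, at 13375, 14612 and 12089, was brighter than Ldhb, the heart form of lactate dehydrogenase, at 6138, 5719 and 6776, with a gap of -1.10 inside the limit.

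The cytochrome c oxidase subunits with a muscle form were mixed. Cox8b, the form of heart and skeletal muscle, was at least 7.93 above Cox8a. Cox6a2 was 2.29 above Cox6a1, and the gap of Cox7a1 to Cox7a2 was -0.87, both inside the limit. Slc25a4 was 3.93 above Slc25a5, its relative in many tissues. Ckm, the cytosolic creatine kinase of muscle, read 2254, 2473 and 2805, below Ckmt2 at 20393, 27048 and 21386, a gap of -3.19 inside the limit.

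Of 13 measured transcription factors of heart development, 3 lay in the brightest 10% of genes. Mef2d led its family at 4649, 4392 and 5649, ahead of Mef2a at 2463, 2251 and 2504. Nkx2-5, the homeobox factor of the heart, read 1893, 1788 and 2154. Gata4 and Gata6 were close, at 1158, 1027 and 959.5 against 1203, 1296 and 1212, and Gata6 was the brighter on each array by a mean gap of 0.24. Ppara, which drives fat oxidation, read 1562, 1847 and 1731 and was apart from Ppard and Pparg.

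Of 34 gene lists for pathways and cell types, 26 had a median brightness above that of all genes, and oxidative phosphorylation was among the brightest. Of its 53 measured genes, 42 lay in the brightest 10%, and the median gene stood at percentile 98.98 of brightness, where the median of all genes is at 50. The citric acid cycle had 17 of 23 genes in the brightest 10%, fatty acid uptake and oxidation 17 of 25, glycolysis and glycogen 16 of 23, and cytosolic ribosomal proteins 17 of 30. Mdh2 led the citric acid cycle at 20961, 23302 and 21078. Hadhb, of the trifunctional protein of fat oxidation, read 19386, 23829 and 18867. Lpl, which frees fatty acids from lipoproteins, read 14951, 15587 and 20043.

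Some dim readings stood within these bright pathways. Vdac1, the pore of the outer mitochondrial membrane, read 17.3, 31.9 and 47.4. Acadvl, the first enzyme of long-chain fat oxidation, read 14.1, 16.6 and 40.7. Got1, of the malate-aspartate shuttle, read 11.7, 8.0 and 8.1, and Cox5a, an obligate subunit of cytochrome c oxidase, 32.4, 63.5 and 82.6. Over all genes, 12.2% had a mean not above the floor. No gene is called absent from a reading at the floor.

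The other cell types of the wall were read at lower brightness. Fibroblast and matrix genes were the brightest of them by median, at percentile 88.3 of all genes, led by Dcn, the matrix proteoglycan decorin, at 15585, 16348 and 15345. Endothelial genes had a median at percentile 74.1, with Eng, a receptor of endothelium, at 5853, 5130.2 and 4852 and Cdh5, its junction cadherin, at 1831, 1197 and 1692. Macrophage genes had a median at percentile 74.7, with C1qa, of complement, at 2772, 1507 and 1432. Smooth muscle and pericyte genes had theirs at percentile 69.0.

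Lymphocyte markers had a median at percentile 23.0, and 5 of its 9 genes had means above the floor. Of the T cell genes, Cd3e, Cd3g, Cd2 and Cd8a had means under it, whereas Cd4 read 211, 247 and 309 and Thy1, also a gene of other cells, 215, 181 and 326. Markers of liver, pancreas, kidney, lung, eye, testis and brain had a median at percentile 16.3, with Alb at 21.3, 31.8 and 22.5, and 9 of 15 had a mean above the floor. The brightest of them was Tnp1, a sperm chromatin protein, at 575, 588 and 923, on a probe set whose code records relaxed design rules. Markers of fast skeletal muscle were mixed, with Tnni2, Myh1 and Myh2 under the floor, Acta1 bright, Myh4 above the floor and Mylpf at 249, 269 and 303. Among transcripts of the sex chromosomes, Xist read 1195, 1032 and 1342, and the Y-linked Kdm5d and Uty were under the floor on all arrays. The Y-linked Sry read 84.5, 103 and 27.3 on a probe set coded for shared sequence and 6.0, 26.9 and 7.5 on its other one.

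**Figure D3:**
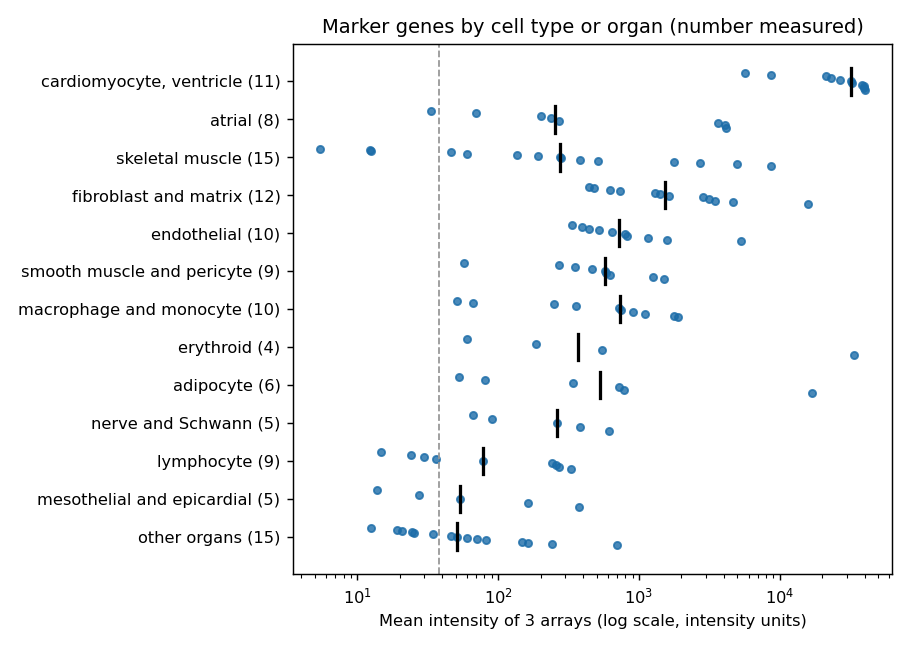
Mean intensity of 3 NTG arrays on a log scale for each measured marker gene, by cell type or organ with the number measured, with a black line at the median of each row and the floor of 38.2 dashed. The ventricular cardiomyocyte markers lie above all other medians, and the markers of other organs gather about the floor.

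The 3 animals differed by more than 2-fold between the highest and the lowest array in 2113 of 10167 probe sets (20.8%), values under the floor being raised to it first. The median SD of the log2 intensity was 0.273. Dim probe sets carried most of this spread: with the probe sets above the floor cut into 5 equal steps of brightness, 46.4% of the dimmest step passed 2-fold, then 36.8%, 12.2% and 5.90%, and 2.61% of the brightest. By gene, 1342 of 7244 passed (18.5%), and a list is read against that share and against its brightness.

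Heart muscle genes and most energy genes varied little. No gene passed 2-fold among 11 ventricular cardiomyocyte genes, 17 sarcomere genes, 13 calcium genes and 20 genes of the citric acid cycle, and 1 of 52 did in oxidative phosphorylation (Cox5a) and 1 of 24 in fat oxidation (Cpt1a, the liver form of the carnitine transferase, at 662, 309 and 735). Dcn had a range of 1.07-fold. These are mostly bright genes, for which few probe sets on the array pass 2-fold. In glycolysis and glycogen 2 of 23 passed (8.70%) and in energy transfer 1 of 13 (7.69%). Skeletal muscle genes stood near the 18.5% of all genes, with 2 of 12 (16.7%), among them Myl1 at 7073, 4712 and 3070.

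**Figure D4:**
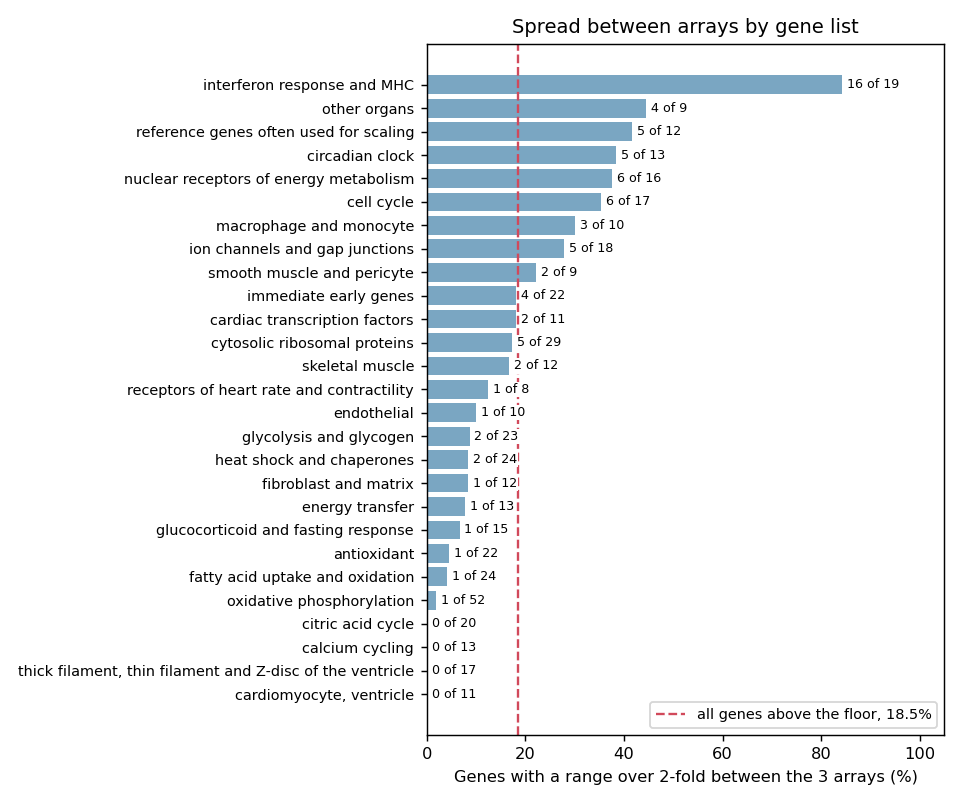
Share of genes with a range over 2-fold between the 3 NTG arrays, for the 27 lists with at least 8 genes above the floor, the 2 lists chosen after values were seen left out, with the counts beside the bars and the share of all genes (18.5%) as a dashed line. The interferon and MHC list reaches 16 of 19, and the citric acid cycle, calcium cycling, sarcomere and ventricular cardiomyocyte lists stand at 0.

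Genes of the interferon response and antigen presentation had the highest share over 2-fold of the 27 lists in the plot of spread. In 16 of 19 genes above the floor (84.2%) the range passed 2-fold, and 14 of these were highest on replicate 1, whereas 6.13% of all genes passed 2-fold with replicate 1 highest. B2m, the light chain of class I MHC, read 10176, 2343 and 4260. H2-K1 and H2-D1, its heavy chains, read 9706, 4191 and 5863 and 9340, 4634 and 5724, on probe sets coded for shared sequence. Replicate 1 was high, replicate 2 low and replicate 3 between them in each of these genes.

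Class II genes, which present antigen on macrophages, dendritic cells and B cells, stood highest on replicate 1 too. Cd74, the invariant chain, read 3999, 1470 and 2193, and H2-Aa 1935, 814 and 975. Psmb8, a subunit of the immunoproteasome, read 1299.7, 500.3 and 970.3, and Tap1, the peptide transporter, 662, 297 and 401. Isg15, a ubiquitin-like protein induced by interferon, read 455, 79.7 and 245. Irf1, a transcription factor of the same response, read 684, 474 and 625 and did not pass 2-fold.

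The GTPases that interferon gamma induces to guard cells against intracellular microbes formed a list chosen after their values were seen. All 8 measured members passed 2-fold (all genes 18.5%), and 7 of them were highest on replicate 1 (all genes 6.13%). Iigp1 read 4570.2, 617 and 1742 on its brighter probe set and 1117, 204 and 608 on the other. Igtp read 1219, 194 and 314, Irgm2 1584, 330.0 and 741, Gbp3 1105, 183 and 664, and Gbp2 1527, 348 and 741. Gbp7 was the exception, highest on replicate 3 at 1287, 613 and 1742.

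These counts changed with the array left out. With 2 arrays left, 4 of 18 interferon and MHC genes passed 2-fold without replicate 1 (22.2%, all genes 10.8%), 7 without replicate 2 (36.8%, all genes 9.70%) and 14 without replicate 3 (73.7%, all genes 9.39%). For the GTPases the counts were 5, 4 and 8 of 8 (62.5%, 50% and 100%), against the same shares of all genes. Over the macrophage list, 8 of 10 genes were highest on replicate 1 (all genes 28.5%), and its summed intensity was 10389.8, 7124 and 6096. In that list 3 of 10 passed 2-fold (30%, all genes 18.5%). When replicates 1, 2 and 3 were left out the counts were 1, 2 and 0 (10%, 20% and 0%), against the same shares of all genes. The lymphocyte list summed to 1166, 1124 and 1542, and none of its 5 genes above the floor passed 2-fold. The part of these cells in the interferon values was not tested.

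Windows of 250 bases before the start were also searched for the interferon-stimulated response element, spelled GAAANNGAAA and read on both strands. It was present in 7 of 21 windows (33.3%) of the interferon and MHC list and in 6 of 8 windows (75.0%) of the GTPases, which share Gbp2 and Gbp3 with it, against 2.98% of all windows. None of the 18 sarcomere windows held it. Of the other 6 motifs, the interferon-gamma-activated site (GAS, TTCNNNGAA) was present in 3 windows of either list (14.3% and 37.5%, all windows 7.02%), TATAAA in 5 of the 21 and 2 of the 8 (all windows 12.4%), and each of the rest in at most 1. The windows of Gbp2 on the plus strand (chr3:142620413-142620662, match 59 to 50 bases before the start) and Igtp on the plus strand (chr11:58199306-58199555, match 34 to 25 bases before the start) are shown as examples from both GTPase families, with the match in capitals.
Gbp2: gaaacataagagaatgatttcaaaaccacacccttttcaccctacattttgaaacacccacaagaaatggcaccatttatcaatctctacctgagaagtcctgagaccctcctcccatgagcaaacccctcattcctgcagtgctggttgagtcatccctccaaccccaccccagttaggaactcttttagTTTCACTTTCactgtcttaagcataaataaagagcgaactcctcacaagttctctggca
Igtp: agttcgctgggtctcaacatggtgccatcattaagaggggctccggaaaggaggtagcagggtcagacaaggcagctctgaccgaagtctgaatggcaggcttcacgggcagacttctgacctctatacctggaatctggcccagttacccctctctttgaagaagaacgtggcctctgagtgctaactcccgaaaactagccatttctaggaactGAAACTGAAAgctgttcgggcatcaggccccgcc
These matches describe the windows and say nothing of what bound there in these hearts.

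Immunoglobulin probe sets, a class also chosen after values were seen, shared the lead of replicate 1. They did not share the order of replicates 2 and 3 seen in B2m, H2-K1 and H2-D1, since their summed intensity was lowest on replicate 3. Not all MHC genes had that order. Chosen after values were seen, the class II genes H2-DMa (940, 242 and 201) and H2-DMb1 (460, 286 and 90.2) were also lowest on replicate 3. Of 77 on the array, 52 lay above the floor, 32 passed 2-fold (61.5%, all probe sets 20.8%) and 24 of these were highest on replicate 1, whereas 6.77% of all probe sets passed 2-fold with replicate 1 highest. Igkv6-23, a kappa light chain variable gene with a probe set coded for shared sequence, had the widest range of any gene above the median brightness, at 3099.7, 249.9 and 101. Igkv4-70 read 648, 148 and 55.1 and Igkv4-68 1015, 116 and 231. Summed over the 52 probe sets the intensity was 32122, 9424 and 8033. Many of them read closely related sequences, so they are not separate observations. Without replicate 1, 10 of 46 passed (21.7%, all probe sets 12.2%). Without replicate 2, 26 of 54 did (48.1%, all probe sets 10.8%), and without replicate 3, 21 of 48 (43.75%, all probe sets 10.9%).

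The main atrial muscle genes had another order of the arrays than B2m, H2-K1 and H2-D1. Myl7, the atrial regulatory light chain, read 7438, 4741 and 326, and Myl4, the atrial essential light chain, 7044, 3566 and 233. Nppa, the atrial natriuretic peptide, read 6992, 3619.6 and 1537. Replicates 1 and 2 were high and replicate 3 was low in each. The ranges of Myl7 and Myl4 were 22.8-fold and 30.2-fold, among the widest on the array, although the second probe set of Myl4 read 708, 766 and 428.

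Of the 7 atrial genes above the floor, 4 passed 2-fold (57.1%, all genes 18.5%). The fourth was Gja5, highest on replicate 2, and Bmp10, a growth factor of atrial muscle, stood at 104, 52.1 and 54.3. Replicate 3 was not low in the other two, Nr2f2, a nuclear receptor of atrial identity, at 316, 185 and 313 and Pam, a peptide-processing enzyme, at 187, 202 and 214. The count was 4 without replicate 1 (57.1%, all genes 10.8%), 3 without replicate 2 (42.9%, all genes 9.70%) and 1 without replicate 3 (14.3%, all genes 9.39%). The summed level of these 7 genes was 22279, 12769 and 2787, and Sln, the eighth measured, was under the floor on every array. The ventricular light chains did not follow, since Myl2 and Myl3 were highest on replicate 2. Whether atrial tissue was carried into the samples, which the labels call ventricle only, was not tested.

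**Figure D5:**
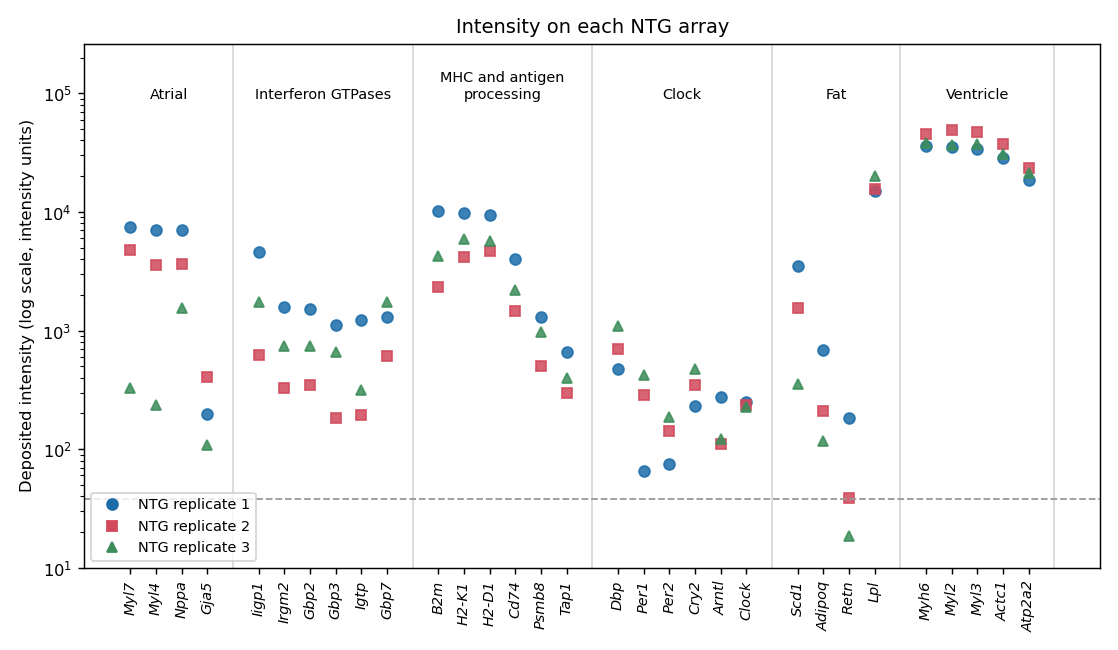
Deposited intensity of each NTG array on a log scale for atrial, interferon-inducible, antigen presentation, clock, fat and ventricular genes, with circles for replicate 1, squares for replicate 2, triangles for replicate 3 and the floor dashed. Replicate 1 leads in the MHC genes and in all shown GTPases but Gbp7, replicate 3 is lowest in Myl7, Myl4 and Nppa, and the ventricular genes lie close together.

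Clock genes, which time daily rhythms in heart and other organs, passed 2-fold in 5 of 13 cases (38.5%, all genes 18.5%). Per1 read 65.9, 285 and 419.8, Per2 74.6, 143 and 186, Dbp 478, 701 and 1088, and Cry2 232, 351 and 473, all lowest on replicate 1 and highest on replicate 3. Arntl (Bmal1), whose rhythm runs opposite to that of the Per genes, read 277, 111 and 121 and was highest on replicate 1. Clock itself read 248, 237 and 225. The 5 over 2-fold were Arntl and the 4 highest on replicate 3, whereas 6.39% of all genes passed 2-fold with replicate 3 highest. The other 8 clock genes stayed within 2-fold. None passed without replicate 1 (all genes 10.8%), 5 without replicate 2 (38.5%, all genes 9.70%) and 2 without replicate 3 (15.4%, all genes 9.39%). The labels give no hour of sampling.

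Fat genes added further ranges. Scd1, the desaturase that makes oleate, read 3492, 1556 and 353 on its brightest probe set and 2437, 1251 and 198 on the next. Adipoq, the fat cell hormone adiponectin, read 684, 211 and 118, and Retn, resistin, 185, 38.5 and 18.7. The 6 measured fat cell genes did not move as one, since Lpl, Lep and Cidea were highest on replicate 3, and their summed intensity, most of it Lpl, was 17148, 17301 and 22035. No fat cell gene passed 2-fold without replicate 1, and 2 did without either of the others (33.3% each, all genes 9.70% and 9.39%). Among 13 measured lipid synthesis genes, a list chosen after values were seen, 2 of 12 above the floor passed 2-fold (16.7%, all genes 18.5%). Fasn, fatty acid synthase, read 709, 712 and 488.

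The other genes of the 10 widest ranges were Ctrl, a chymotrypsin-like protease (378, 63.8 and 437), and Gpcpd1, a phosphodiesterase (143, 325 and 924), both on probe sets whose code records relaxed design rules. Chosen after its values were seen, Sod1, the cytosolic superoxide dismutase, read 999.9, 949 and 3933, with replicate 3 far above the others. At the narrow end, Psmb6, a proteasome subunit, read 1719, 1717 and 1728, and Atp6v0e, of the vacuolar proton pump, 685, 685 and 688. Both were picked as the least variable genes above the median brightness.

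Genes often used to scale measurements were not all steady between these animals. Of 12 measured, 5 passed 2-fold (41.7%, all genes 18.5%), and 3 did whichever array was left out. They were B2m, Tfrc, the transferrin receptor (3119.4, 3810.3 and 1504), Actb, cytoskeletal actin (1338, 1501 and 3008), Ywhaz, a 14-3-3 adaptor (942, 1889 and 1770), and Tbp, the TATA-binding protein (36.2, 86.1 and 35.2). The dimmer probe set of Tfrc read 176, 180 and 131 and did not pass 2-fold. Tbp was under the floor on replicates 1 and 3, so the low end of its range is the floor. Sdha, a subunit of succinate dehydrogenase, read 2593, 2686 and 2742, and Rpl13a, a ribosomal protein, 316, 333 and 372, both within 1.18-fold. Other plotted lists above the share of all genes were markers of other organs, with 4 of 9, nuclear receptors of energy metabolism, with 6 of 16, cell cycle, with 6 of 17, ion channels and gap junctions, with 5 of 18, and smooth muscle and pericyte, with 2 of 9. Most of these counts were smaller when an array was left out, as was the share of all genes, at 10.8%, 9.70% and 9.39% without replicates 1, 2 and 3. Without replicates 1, 2 and 3 in turn, the cell cycle count was 1 (6.25%, under the 10.8% of all genes), 3 and 3 (17.6% each). That of the ion channels was 3 each time, that of other organs 2, 2 and 1, and that of smooth muscle and pericyte 2, 1 and 1.

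Within the nuclear receptors the wide genes were dim ones. Ppargc1a, the coactivator of mitochondrial genes, read 68.8, 169 and 265, and Nr4a1, an early-response receptor, 118, 159.7 and 363. Esrra, the brightest, read 2465, 3251 and 2193 and stayed within 2-fold. The count of 6 fell to 5 without replicate 1 (31.25%, all genes 10.8%) and 4 without replicate 2 (25%, all genes 9.70%). Without replicate 3 it was 1 (6.25%, all genes 9.39%). Among ion channels, Kcnd3, a channel of the transient outward current, read 253, 183 and 50, and the brightest, Gja1, stayed within 2-fold.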

How the data were processed

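Members of the group were taken from the sample titles. The deposited intensity values, 1 for each of 12488 probe sets and array, were made by the authors and are on a linear scale. The summary program, its version and the genome build are not given in the sources used here, and values entered as deposited, because quantile normalization forces the brightest probe sets of the arrays together; it was an alternative. Leaving out 66 control probe sets kept 12422, of which the annotation table of the array gives 1 gene symbol to 10833 and several to 396. Means and SD are of deposited values. For log2 values, ranges and gaps, values under the floor were raised to 38.2.

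The genes, lists and families were chosen with earlier results of these data known, and the 2 lists added later with their values in view. The text names the 25 brightest genes, family members, the 10 widest ranges among genes above the median, up to 4 bright and 4 wide members of a list, the cell type markers, and others where so stated. Where nothing says how the animals were kept or sampled, the spread is that between these 3 animals with their arrays. Promoter windows came from RefSeq, build GRCm38.p6, with 6576 of 8251 genes found. Python 3.11.15, numpy 2.4.6 and pandas 2.3.3 were used, and the scripts were tested on simulated data.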

Additional observations from a re-analysis of the deposited data

How the results depend on the processing

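Each of 189 results was recomputed under up to 14 other settings. Of these values 1660 moved by no more than the spread between arrays or, for counts, stayed within 1.5 times, and 427 moved further. In 5 more, all gaps of pairs called apart, the sign turned or the gap became 0. A change of sign in a pair not called apart was not counted as a turn. The heart member led in 24 to 29 of the same 29 families under every setting run; the fewest came from probe sets without a code suffix, where the actin, aldolase, connexin, cytochrome c oxidase 6a and calcium pump families were lost. With those probe sets alone the dimmest ventricle marker stood at rank 3, as Actc1 and Atp2a2 have no such probe set, and the brightest 100 held 24.6%. The 90th percentile of the gap within a gene was then 3.41, and it was 3.79 with quantile normalization over 9 arrays, 4.58 and 2.87 with the floor at the 5th and 40th percentile, 4.08 without a filter and 2.57 above the median. The count over 2-fold was 3436 and 596 with the floor at the 5th and 40th percentile, 453 above the median and 1095 to 1237 with 1 array left out, where ranges span 2 arrays and are smaller by construction. The median SD was 0.309 and 0.217 with those floors, 0.228 without a filter, 0.201 above the median and 0.199 to 0.242 with 1 array left out. Cryab against Hspb1 turned to -0.73 without suffixed probe sets and -0.90 with the dimmest probe sets, which also gave 0 for Ldhb against Ldhc, -0.39 for Slc2a4 against Slc2a1 and -0.997 for Slc2a4 against Slc2a3; the cause was not tested beyond the choice of probe set. A relative was apart above the heart member in no pair in the reported setting, in 4 without suffixed probe sets, 2 with the mean and 5 with the dimmest. No paired analysis was possible because the replicate numbers only name the arrays and a single group is described. Signals near the floor set the limit of what dim genes can show.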

Other observations

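Stress-response genes of the NTG ventricle were read at middle to high brightness and differed little between the animals. Of 24 measured heat shock and chaperone genes, 13 lay in the brightest 10% and 2 passed 2-fold (8.33%, all genes 18.5%). Hspb8, a small heat shock protein of muscle, read 8459, 10621 and 10521, and Cryab, which protects desmin and titin, 4666, 5008 and 5471. The inducible Hspa1a read 134, 183 and 155. Among 23 antioxidant genes, 11 lay in the brightest 10% and 1 of 22 above the floor passed 2-fold (4.55%), which was Sod1. Gpx3, the plasma glutathione peroxidase, read 11191, 9067 and 6146, with replicate 1 highest and replicate 3 lowest.

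Immediate early genes, which rise within minutes of a stimulus or of tissue handling, passed 2-fold in 4 of 22 cases. This was 18.2%, close to the 18.5% of all genes. Jund was the brightest at 8987, 9323 and 6347. Fos read 114, 94.4 and 118 and Egr1 453, 336 and 435, with no array apart in either. Genes of fasting and glucocorticoids passed 2-fold in 1 of 15 cases (6.67%), which was Per1, also a clock gene. Pdk4, which spares glucose in fasting, read 2576, 2218 and 4162, and Fkbp5, a target of the glucocorticoid receptor, 509, 738 and 403.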
